A study of Rattus norvegicus with 16 samples.

Results

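Purified Schwann cells and whole sciatic nerve, both collected 3 days after a nerve crush, were compared to separate the transcripts of the injured nerve that are enriched in Schwann cells from those that belong to its other cells. The comparison used 4 of the 16 libraries of the series, 2 of Schwann cells and 2 of whole nerve. The libraries were chosen by their labels for tissue and day, and no measured value entered the choice. The left sciatic nerve of rats was crushed with forceps at postnatal day 18 under isoflurane, with carprofen for pain, and the segment distal to the crush was taken. Libraries of both tissues at 5 and 7 days, and of uncrushed nerve from rats without a sham operation, are set beside the day 3 comparison where named. Schwann cells were taken from 10 or more nerves per sample, which were dissociated and panned on antibody dishes. Dishes coated with antibodies to CD45 and Thy1 were meant to hold back macrophages and perineural fibroblasts, and a dish with the O4 antibody, which binds a lipid of the Schwann cell lineage, kept the Schwann cells. Whole nerve RNA came from at least 10 pooled nerves per sample without dissociation. The labels number the 2 libraries of a group but do not say that they come from separate cohorts of animals. The p-values rest on a spread between samples of a group that was estimated from all 16 libraries and may be technical. Counts summed to 15806398 and 27562637 in the Schwann cell libraries and to 18526827 and 20203912 in whole nerve.

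Schwann cells are the glia of peripheral nerve. After an axon is cut off from its cell body they stop making myelin, divide, break down debris and turn on a repair program of transcription factors such as c-Jun and of secreted trophic factors. A crushed nerve also holds macrophages that arrive from the blood, fibroblasts of the endoneurium and epineurium, perineurial cells, endothelial cells and pericytes, mast cells, fat of the epineurium and blood. A transcript that rises in extracts of an injured nerve can come from any of them. In bulk samples such as these, fewer cells of a type and less RNA per cell cannot be told apart.

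Dissociation and panning were applied to Schwann cells and not to whole nerve, so in these libraries their effect on a transcript cannot be told apart from the identity of the cells. Dissociated nerve that was not panned, which the study also profiled, was not analysed here. Among the Schwann cell libraries, replicate 2 stood apart in the traces of other cells. The summed FPKM (fragments per kilobase of gene, scaled to the depth of the library) of 23 macrophage markers was 80.5 in replicate 1 and 159 in replicate 2, against 3809 and 3789 in whole nerve, and 21 of these 23 markers were higher in replicate 2. The median log2 ratio of replicate 2 to replicate 1 was 1.89 for macrophage, 1.62 for endothelial, 1.46 for mast cell, 1.24 for pericyte and 1.03 for fibroblast markers, and 0.0003 over all 16829 genes tested. Red blood cell genes lay the other way, with 103 FPKM in replicate 1 and 25.3 in replicate 2. Values without replicate 2 of the Schwann cells, written below as without replicate 2, are given beside most lists of other cell types, where a count of calls changed and where a named gene moved by over 1.5-fold, and what these traces add to a single gene was not tested. Ribosomal protein genes, which cells use for making ribosomes, were lower in Schwann cells for 82 of 84 tested members, with a median log2 fold change of -0.99, and mitochondrial messages held 5.70% to 6.63% of the counts of the 4 libraries.

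Schwann cells and whole nerve differed widely at day 3. In the edgeR fit, 9628 of the 16829 genes tested (57.2%) were called at an adjusted p below 0.05. Of these, 4131 (24.5% of the genes tested) were higher in Schwann cells and 5497 (32.7%) were lower. The counts given below for lists of genes stand against these shares of all genes. A difference of at least 2-fold was reached by 1937 genes in the higher direction (11.5%) and by 3499 in the lower (20.8%). The sizes were unequal, since 2001 genes were over 8-fold lower in Schwann cells and 366 were at least 8-fold higher. Some of these had no more than 3 counts in each library of one tissue, taken here as the floor. With such genes set to the bound that the floor allows, the counts were 1594 and 263. The same contrast called 8680 genes (51.6%) at day 5, 8561 (50.9%) at day 7 and 10786 (64.1%) in uncrushed nerve, which are other libraries.

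**Figure D1:**
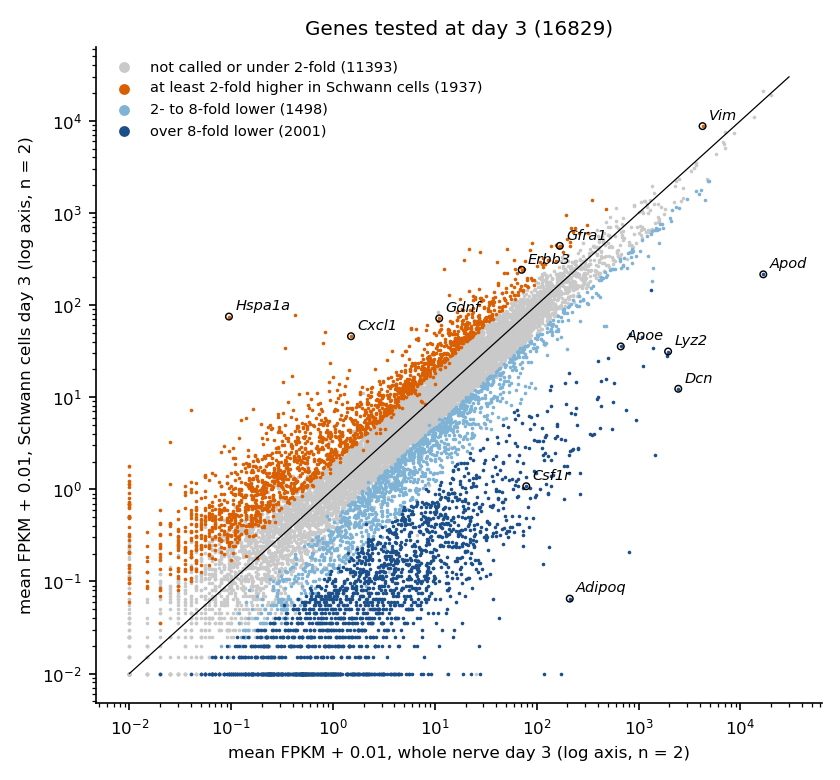
Mean FPKM of each gene tested at day 3, plus 0.01, in whole nerve (horizontal, log axis) and in Schwann cells (vertical, log axis), with 2 libraries per mean and points coloured by the edgeR call. The 2001 genes over 8-fold lower form a cloud far below the diagonal, while most of the 1937 genes at least 2-fold higher lie close above it. Hspa1a and Cxcl1 are the labelled exceptions.

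The genes over 8-fold lower made up 14.4% and 13.5% of the transcripts of whole nerve and 0.327% and 0.444% of those of Schwann cells, as shares of TPM (transcript counts scaled per length and to one total per library) without mitochondrial, ribosomal protein and ribosomal RNA genes. The genes at least 2-fold higher made up 15.3% and 15% of Schwann cell transcripts and 4.52% and 4.62% of whole nerve transcripts. These shares describe genes chosen by their difference in the same libraries. Of the 2001 genes, 1891 were also called lower at day 5 and 1872 at day 7. Those are other libraries, but they share the filter, the scaling and the estimate of spread with the day 3 test. Of the 1937 genes, 1559 were called higher at day 5 and 1362 at day 7.

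Schwann cell markers were higher in the purified cells, and by moderate factors. Of 15 lineage genes tested, 14 were called higher, 0 were called lower and the median log2 fold change was 1.29, against -0.11 over all genes tested. Sox10, the transcription factor that fixes the identity of these glia, had 67.2 and 63.6 FPKM in Schwann cells and 27.8 and 27.9 in whole nerve, a log2 fold change of 1.28 ± 0.15. Erbb3, which receives the neuregulin signal of the axon, had 249.9 and 233 FPKM in Schwann cells and 71.7 and 70.7 in whole nerve (1.81 ± 0.13). The adhesion molecule L1cam, found on immature and non-myelinating Schwann cells, had 38.1 and 33.9 FPKM in Schwann cells and 5.16 and 5.89 in whole nerve (2.76 ± 0.29). In these 3 genes both Schwann cell libraries lay above both whole nerve libraries. Here and below, such a separation of 2 against 2 libraries is a description and not a test. Its share over all genes tested is not given.

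Myelin genes differed less. Of 19 tested, 15 were called higher in Schwann cells and 0 lower, with a median of 0.83 and with 14 higher without replicate 2. Mbp, the basic protein of the myelin membrane, had 382 and 409.7 FPKM in Schwann cells and 273 and 253 in whole nerve (0.64 ± 0.11). S100b, a calcium binding protein of the lineage list, had 1266 and 1090 FPKM in Schwann cells and 964 and 832 in whole nerve (0.43 ± 0.12), and its call was lost without replicate 1 of Schwann cells (adjusted p = 0.0667, edgeR) and without replicate 2 of whole nerve (adjusted p = 0.0829). In uncrushed nerve 12 of the 19 were called lower in Schwann cells and 4 higher, with a median of -1.01.

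**Figure D2:**
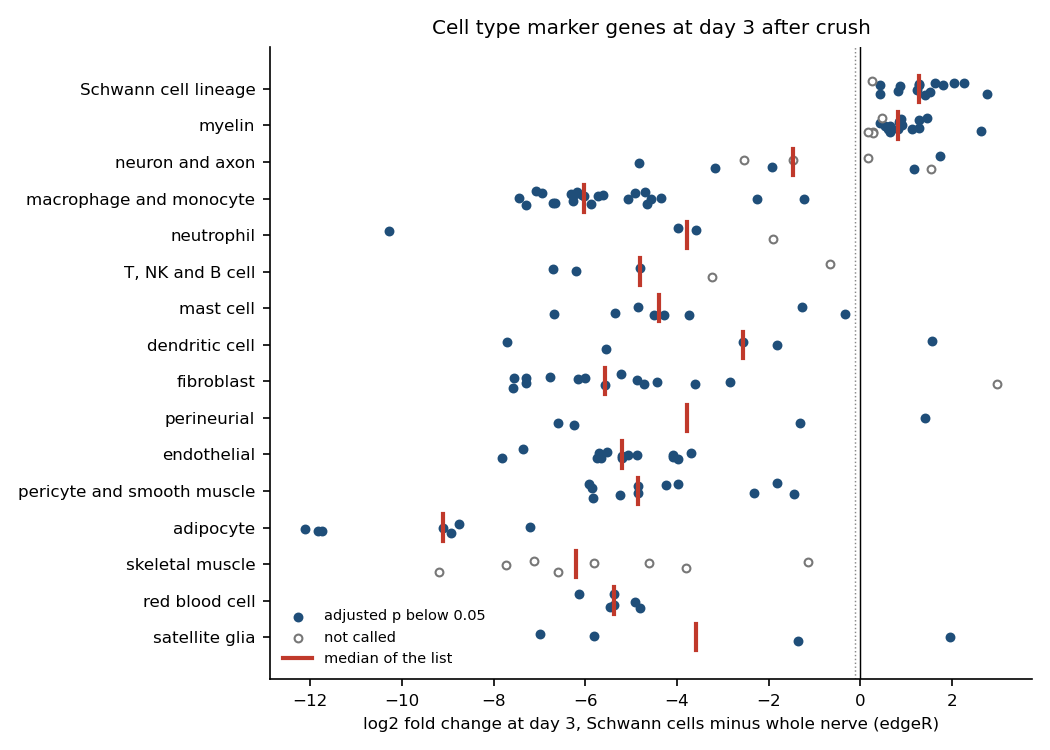
Log2 fold change at day 3 (horizontal, Schwann cells minus whole nerve) of each tested member of the 16 cell type lists (rows). Filled points passed the edgeR test, open points did not, red bars are medians and the dotted line is the median of all genes tested (-0.11). Schwann cell lineage and myelin points lie right of 0, while the macrophage, fibroblast and endothelial medians lie between -6.02 and -5.21.

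Genes of the immediate-early and stress response, which cells switch on within minutes of a stimulus, were among the most enriched in Schwann cells. Of the 12 abundant genes with the largest differences, chosen at a mean of at least 30 FPKM and leaving out loci without a gene symbol, 6 were on this list. Of its 36 members tested, 31 were higher in Schwann cells and 1 was lower, with a median log2 fold change of 1.98 and with 29 higher without replicate 2. Hspa1a, an inducible heat shock chaperone, had 60.8 and 89.1 FPKM in Schwann cells and 0.17 and 0 in whole nerve (9.88 ± 0.65, with 8.83 without replicate 2 of whole nerve, which was at 0, and 14.44 without replicate 1, a fit against 0 that sets no upper limit). The nearly identical gene Hspa1b can share its reads, so this value is uncertain. Fosb, a partner of Jun in the AP-1 factor, had 77.6 and 78.6 FPKM in Schwann cells and 0.48 and 0.34 in whole nerve (7.63 ± 0.37), and Fos itself had 250.3 and 241 FPKM in Schwann cells and 11.5 and 13.3 in whole nerve (4.35 ± 0.15). The groups did not overlap in any of the 3.

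Nfkbia, the inhibitor of NF-kB that NF-kB itself induces, had 411 and 410.5 FPKM in Schwann cells and 20.2 and 23.3 in whole nerve (4.28 ± 0.36). Cyr61, a matricellular protein driven by YAP and serum response factor, had 306 and 307 FPKM in Schwann cells and 15.3 and 23.1 in whole nerve (4.04 ± 0.27). Ctgf, its relative, was the 1 member that was lower, with 4.99 and 6.08 against 15.9 and 23.8 FPKM (-1.78 ± 0.23). Klf6, a zinc finger factor, and Ppp1r15a, which ends the block of translation under stress and is not on the list, had log2 fold changes of 3.02 ± 0.14 and 3.32 ± 0.15. The same list was higher in uncrushed Schwann cells against uncrushed whole nerve, with 34 of 36 members called and a median of 3.75. The list was thus higher in Schwann cells with and without a crush, and cell identity and dissociation cannot be told apart as its source in the libraries used here.

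Of these 36 genes, 25 matched a RefSeq promoter window of 300 bases (build GRCr8), which runs from 250 bases before to 50 after the start of the gene. The letters TGACGTCA, the full cAMP response element, stood on either strand in 5 of the 25 (20%), in 2.97% of the 11233 windows of tested genes and in 1.83% of all 33469 windows. In the 1025 windows of genes at least 2-fold higher in Schwann cells it stood in 2.93%, near the share of all tested genes, and in 1 of 6 windows of the lineage list. Ier2, 1 of the 5, was not called (-0.49). The AP-1 letters TGANTCA stood in 0 of the 25 and in 5.14% of the windows of tested genes. Motifs were chosen after the day 3 values were known, and a match is a description of letters. Dusp1, a phosphatase that shuts off MAP kinases, and Btg2, an antiproliferative gene, are shown because both hold the element and were called higher in the purified cells (log2 fold changes of 2.69 and 1.29). Their windows lie at chr10:17184603-17184902 on the plus strand and at chr13:48087641-48087940 on the minus strand, and the capitals mark the element.
Dusp1: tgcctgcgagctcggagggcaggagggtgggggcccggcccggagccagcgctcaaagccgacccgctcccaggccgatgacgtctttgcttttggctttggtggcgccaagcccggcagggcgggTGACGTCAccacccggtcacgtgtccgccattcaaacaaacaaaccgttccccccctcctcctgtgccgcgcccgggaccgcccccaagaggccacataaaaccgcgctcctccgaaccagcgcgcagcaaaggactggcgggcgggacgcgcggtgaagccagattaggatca
Btg2: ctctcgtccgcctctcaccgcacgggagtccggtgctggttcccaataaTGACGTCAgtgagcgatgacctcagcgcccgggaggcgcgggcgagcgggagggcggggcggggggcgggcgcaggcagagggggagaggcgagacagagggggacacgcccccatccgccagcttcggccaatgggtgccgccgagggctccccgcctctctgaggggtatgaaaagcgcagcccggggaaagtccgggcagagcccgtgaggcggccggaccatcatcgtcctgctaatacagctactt

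Scn7a, Cadm2 and Fign were among the same 12 genes and outside the list. Scn7a, an atypical sodium channel of non-myelinating Schwann cells, had 154 and 102 FPKM in Schwann cells and 11.2 and 16.4 in whole nerve (3.27 ± 0.26). Cadm2, an adhesion molecule that binds axonal partners, had 59.4 and 49.7 FPKM in Schwann cells and 6.72 and 6.27 in whole nerve (3.10 ± 0.20), and Fign, a microtubule severing enzyme, had 57.6 and 52.3 FPKM in Schwann cells and 6.1 and 5.55 in whole nerve (3.55 ± 0.19). Adhesion molecules as a list went both ways. Of 37 tested, 20 were higher and 12 lower, with a median of 0.58 (20 and 10 without replicate 2). Chl1, a relative of L1cam that had 405 and 394 FPKM in Schwann cells, and Cdh19, a cadherin of Schwann cell precursors, had log2 fold changes of 2.25 ± 0.14 and 2.04 ± 0.12. At the other end the selectins Selp and Sele, by which endothelium catches leukocytes, were at or below the floor of 3 counts per library in Schwann cells and at least 40.2-fold and 17.3-fold lower there.

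Genes of the repair program were enriched as well. Of 19 tested, 17 were higher in Schwann cells and 1 lower, with a median of 1.53 and with 16 higher without replicate 2. Gdnf, which keeps motor neurons alive, had 65.2 and 78.2 FPKM in Schwann cells and 10.8 and 11.2 in whole nerve (2.75 ± 0.20). Jun, the factor on which the repair state depends, had 232 and 218 FPKM in Schwann cells and 49 and 52 in whole nerve (2.20 ± 0.11). It is also on the immediate-early and stress list, for which cell identity and dissociation cannot be told apart. Sox2, a factor of immature glia, had 48.9 and 47.9 FPKM in Schwann cells and 13.3 and 16 in whole nerve (1.77 ± 0.19). Runx2, better known from bone, had 147 and 149 FPKM in Schwann cells and 28 and 25.6 in whole nerve (2.52 ± 0.13). Each of these 4 was higher in every Schwann cell library than in any whole nerve library. In uncrushed nerve 14 of the 19 repair genes were called higher in Schwann cells and 2 lower, with a median of 2.12. Enrichment of the list was thus not confined to injured nerve.

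Other repair genes had low levels in both tissues. Artn, a ligand of the GDNF family, had 1.35 and 1.04 FPKM in Schwann cells and 0.33 and 0.52 in whole nerve (2.15 ± 0.53). Shh, a morphogen that injured Schwann cells make, had 3.87 and 4.27 FPKM in Schwann cells and 2.05 and 1.71 in whole nerve (1.16 ± 0.31) and lost its call without replicate 2 of whole nerve (adjusted p = 0.0525, edgeR). Bdnf had 0.7 and 0.85 FPKM in Schwann cells and 0.41 and 0.39 in whole nerve, and its log2 fold change of 1.05 ± 0.41 lost its call when replicate 2 of Schwann cells (edgeR, adjusted p = 0.19), replicate 1 of whole nerve (0.0972) or replicate 2 of whole nerve (0.152) was left out, and with DESeq2 (adjusted p = 0.0563). Mdk, a heparin-binding growth factor, was the 1 member lower in Schwann cells, with 36.4 and 46.5 against 57.2 and 60.4 FPKM (-0.47 ± 0.16), a call lost without replicate 1 of Schwann cells (edgeR, adjusted p = 0.182) or replicate 2 of whole nerve (0.0727).

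**Figure D3:**
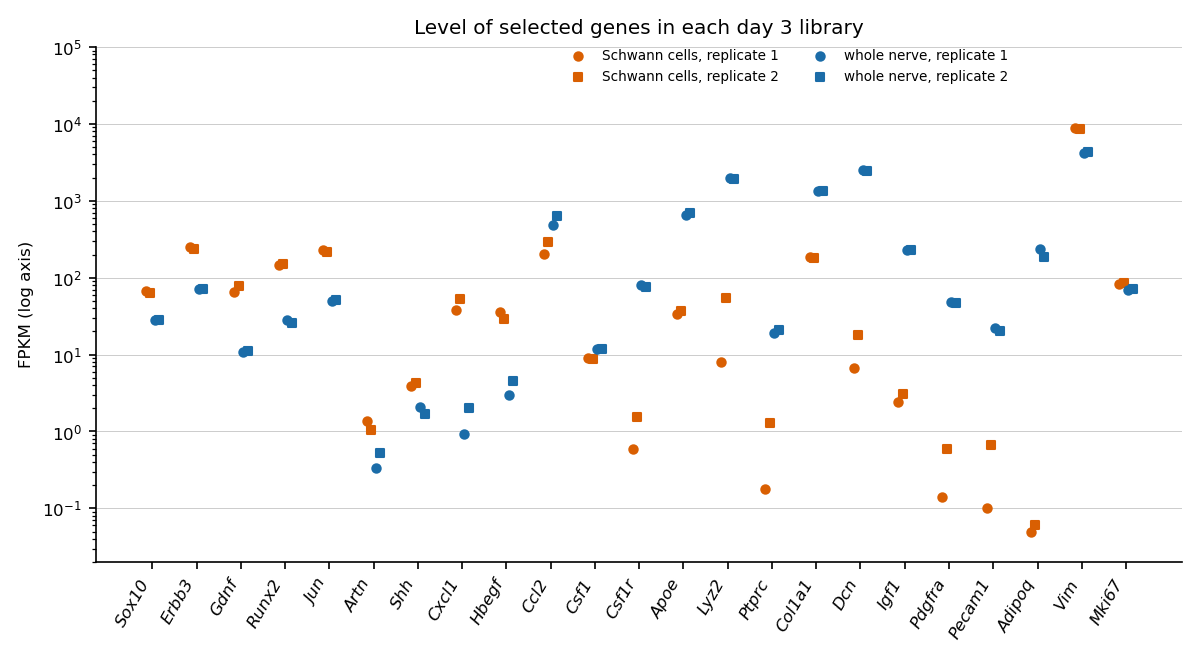
FPKM (vertical, log axis) of 23 genes in each of the 4 day 3 libraries, with orange for Schwann cells, blue for whole nerve, circles for replicate 1 and squares for replicate 2. Group means of genes of Schwann cells and repair (Sox10 to Shh, left) differ by less than 1 decade. Group means of Igf1, Pdgfra, Pecam1 and Adipoq differ by over 1.5, with orange below blue. In Lyz2, Ptprc, Pdgfra and Pecam1 the orange square lies above the orange circle.

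Growth factor ligands divided between the purified cells and whole nerve. Of 38 tested, 15 were higher in Schwann cells and 20 lower, with a median of -0.52 (13 and 20 without replicate 2). Areg had 7.35 and 7.07 FPKM in Schwann cells and 0.06 and 0 in whole nerve and was at least 46-fold higher, since whole nerve was at the floor. Hbegf had 35.3 and 28.6 FPKM in Schwann cells and 3.02 and 4.49 in whole nerve (3.12 ± 0.17) and Btc had 89.3 and 98.6 FPKM in Schwann cells and 23.1 and 24.6 in whole nerve (2.00 ± 0.22), all above whole nerve in both libraries. Fgf5 and Pdgfa, mitogens of fibroblasts, had log2 fold changes of 2.32 ± 0.19 and 1.05 ± 0.13.

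Igf1, Igf2 and Bmp7 were among the 20 ligands that were lower. Igf1, a survival factor that macrophages and fibroblasts make, had 2.43 and 3.03 FPKM in Schwann cells and 227 and 228 in whole nerve (-6.38 ± 0.54). Igf2 had 0.73 and 2.83 FPKM in Schwann cells and 207 and 187 in whole nerve (-6.64 ± 0.50, -8.05 without replicate 2), and Bmp7 had 0.03 and 0.08 FPKM in Schwann cells and 7.82 and 5.83 in whole nerve (-6.69 ± 0.40, -7.72 without replicate 2). Of 31 receptors tested, 9 were higher and 20 lower in Schwann cells (8 and 19 without replicate 2), against 24.5% and 32.7% of all genes tested, so the share that was higher lay near that of all genes. Gfra1, which binds Gdnf, had 443 and 435 FPKM in Schwann cells and 170.5 and 166 in whole nerve (1.53 ± 0.12). Ret, a kinase through which Gfra1 can signal, had 0.02 and 0.03 FPKM in Schwann cells and 0.84 and 0.78 in whole nerve (-4.96 ± 0.52, -5.75 without replicate 2). Erbb2, the kinase partner of Erbb3, had 8.87 and 7.68 FPKM in Schwann cells and 2.57 and 2.08 in whole nerve (1.88 ± 0.15), whereas Egfr, the receptor of Areg, Hbegf and Btc, had 0.11 and 0.28 FPKM in Schwann cells and 22.1 and 23.2 in whole nerve (-6.55 ± 0.27, -7.60 without replicate 2). Gfra1 and Ret thus lay on opposite sides of the comparison, as did these 3 EGF family ligands and Egfr. Pdgfra and Csf1r, the receptors of fibroblast and macrophage growth factors, had log2 fold changes of -6.78 and -6.07 (-8.37 and -7.00 without replicate 2).

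Macrophage and monocyte transcripts were far lower in the purified cells. Of 23 markers tested of 24 listed, 23 were lower in Schwann cells, with a median log2 fold change of -6.02, and 22 were called without replicate 2, with a median of -7.16. The summed level of the markers in Schwann cells was 2.12% of the whole nerve mean in replicate 1 and 4.19% in replicate 2. Ptprc, which encodes the CD45 antigen of the first dish, had 0.18 and 1.29 FPKM in Schwann cells and 19.1 and 20.7 in whole nerve (-4.56 ± 0.49, -6.72 without replicate 2 and -3.89 without replicate 1). Lyz2, the lysozyme of myeloid cells, had 7.99 and 54.6 FPKM in Schwann cells and 1972 and 1927 in whole nerve (-5.88 ± 0.83, -7.90 without replicate 2 and -5.11 without replicate 1), and lost its call in a fit of the day 3 libraries alone (edgeR, adjusted p = 0.0638). C1qc, a chain of complement C1q, had 0.3 and 0.65 FPKM in Schwann cells and 89.6 and 94.9 in whole nerve (-7.45 ± 0.29, -8.22 without replicate 2), and Cd163, the haemoglobin scavenger receptor of resident macrophages, had 0.18 and 0.48 FPKM in Schwann cells and 61.7 and 58.5 in whole nerve (-7.30 ± 0.46, -8.32 without replicate 2). Whole nerve was above Schwann cells in both libraries for all 4, and replicate 2 of Schwann cells was above replicate 1 in each.

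Of the macrophage markers, 16 matched a RefSeq promoter window. The letters GAGGAAG, the core that the myeloid factor PU.1 (gene Spi1) prefers, stood on either strand in 9 of the 16 (56.2%), against 13.3% of the windows of tested genes and 12.4% of all windows. Over the whole comparison the letters stood in 18.1% of 1316 windows of genes over 8-fold lower in Schwann cells and in 13.3% of 1025 windows of genes at least 2-fold higher. Spi1 itself had 0.09 and 0.25 FPKM in Schwann cells and 5.13 and 6.22 in whole nerve (-4.71 ± 0.49). Itgam and Mrc1, an integrin and the mannose receptor of macrophages, are shown as 2 windows with the letters in capitals, which read CTTCCTC where they lie on the other strand. The windows are chr1:192089342-192089641 and chr17:82157475-82157774 (GRCr8, both plus strand), and their genes had log2 fold changes of -4.92 (-6.88 without replicate 2 and -4.31 without replicate 1) and -6.69.
Itgam: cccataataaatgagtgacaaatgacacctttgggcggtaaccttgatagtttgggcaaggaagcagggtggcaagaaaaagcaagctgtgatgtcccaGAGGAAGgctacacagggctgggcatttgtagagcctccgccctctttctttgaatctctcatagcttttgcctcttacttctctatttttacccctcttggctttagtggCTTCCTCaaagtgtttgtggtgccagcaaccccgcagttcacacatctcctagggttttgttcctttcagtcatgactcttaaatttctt
Mrc1: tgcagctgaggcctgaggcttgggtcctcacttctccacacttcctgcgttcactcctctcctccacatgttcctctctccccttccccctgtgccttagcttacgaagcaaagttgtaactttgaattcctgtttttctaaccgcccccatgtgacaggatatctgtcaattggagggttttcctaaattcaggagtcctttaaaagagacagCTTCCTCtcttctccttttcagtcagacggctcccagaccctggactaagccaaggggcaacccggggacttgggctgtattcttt

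Genes of antigen presentation and complement, in which macrophages take part, had medians like that of the markers. C1qa, C1qb and C1qc stand on both the complement and the macrophage lists, so that likeness rests in part on shared members. All 12 MHC class II genes tested of 13 listed were lower in Schwann cells, 11 of them without replicate 2, with a median of -5.74 (-5.40 with genes at the floor set to their bound, and -6.77 without replicate 2). The list also holds Cd74, Ciita, Cd80 and Cd86, which are not class II genes themselves, and Cd80 had the smallest decrease (-0.83). The RT1 genes of the list resemble each other and can share reads. Of 23 complement genes tested, 20 were lower and 1 higher, with a median of -5.68 (-7.22 without replicate 2). The exception was Cd46, a regulator that protects cells from complement, with 2.99 and 2.32 against 1.47 and 1.36 FPKM (0.88 ± 0.27), a call lost without replicate 1 of Schwann cells (adjusted p = 0.0584, edgeR) or of whole nerve (0.0672).

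Phagocytosis genes were mixed. Of 36 tested, 26 were lower and 7 higher, with a median of -4.13 (-3.82 with bounds, and 5 higher without replicate 2). Mertk and Axl, receptors by which glia take up dying material, had 38.3 and 40.1 against 16.9 and 16.5 FPKM (1.28 ± 0.16) and 83 and 76.2 against 47.2 and 53.2 FPKM (0.71 ± 0.10). Abca1, which exports cholesterol, had 274 and 258 FPKM in Schwann cells and 96.2 and 106 in whole nerve (1.45 ± 0.10). Apoe, the lipoprotein that accepts it, had 34.2 and 36.9 FPKM in Schwann cells and 647 and 689.6 in whole nerve (-4.20 ± 0.16). Cd300lf, an inhibitory receptor of myeloid cells, was at 0 FPKM in both Schwann cell libraries and at least 9.21-fold lower. Mertk, Axl and Abca1 were thus among the 7 that were higher, and most of the list was lower.

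Chemokines and cytokines were mostly lower in Schwann cells, with 28 of 39 lower and 4 higher, and a median of -2.40 (-2.30 with bounds). Without replicate 2 the counts were 26 and 2 and the median was -3.28. The 4 were Cxcl1, Cxcl2, Cxcl3 (log2 fold change of 3.11) and Ccl3. Cxcl1, which attracts neutrophils, had 38.2 and 53.5 FPKM in Schwann cells and 0.94 and 2.04 in whole nerve (4.96 ± 0.24, and 5.62 without replicate 2 of whole nerve), and Cxcl2 had 1.81 and 8.26 FPKM in Schwann cells and 0.3 and 0.16 in whole nerve (4.50 ± 0.75, 2.98 without replicate 2 and 5.19 without replicate 1). Cxcl1 and Cxcl2 were still called without replicate 2 and Cxcl3 was not. Ccl3, which attracts monocytes, had 4.06 and 28.4 FPKM in Schwann cells and 2.96 and 3.98 in whole nerve, so that replicate 1 was close to whole nerve. Its log2 fold change was 2.28 ± 0.69 with both Schwann cell libraries, 3.06 without replicate 1 and 0.24 without replicate 2 (adjusted p = 0.733, edgeR), and the call was also lost without replicate 1 (0.0979) or 2 (0.0619) of whole nerve. Ccl2, the main monocyte attractant of injured nerve, was high in both tissues, with 202 and 291 against 488 and 640.4 FPKM (-1.16 ± 0.26, with an edgeR adjusted p = 0.0764 in a fit of the day 3 libraries alone). Csf1, the ligand of Csf1r, had 8.9 and 8.88 against 11.8 and 11.7 FPKM (-0.37 ± 0.12), a call lost without replicate 1 (edgeR, adjusted p = 0.0698) or 2 (0.0593) of Schwann cells or replicate 1 of whole nerve (0.0831), with upper quartile scaling (0.0606) and without a filter on low counts (0.052). The receptor Csf1r had 0.6 and 1.54 against 81.4 and 76.4 FPKM. Ccl21, a chemokine of lymphatic vessels with near copies in the genome, had 0 and 0.06 against 47.5 and 38.5 FPKM and was at least 182-fold lower in Schwann cells.

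Receptors for these signals were lower too, with 20 of 25 lower, 2 higher and a median of -3.33 (-2.76 with bounds, and 21 lower without replicate 2). The 2 were Tnfrsf12a, the receptor of TWEAK, with 95.2 and 127 against 44 and 41.6 FPKM (1.42 ± 0.13), and Il1rap, a chain of the interleukin 1 receptor, with 7.32 and 10.1 against 4.74 and 4.7 FPKM (0.96 ± 0.22). Il1r1, the chain that Il1rap joins, had 0.19 and 0.28 against 14.1 and 18.1 FPKM (-5.61 ± 0.22) and was thus lower in the purified cells.

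Fibroblast markers were also lower in the purified cells. Of 15 tested, 14 were lower, with a median of -5.58 (-6.50 without replicate 2). Dcn, a small proteoglycan of connective tissue, had 6.77 and 17.9 FPKM in Schwann cells and 2486 and 2419 in whole nerve (-7.55 ± 0.55, -8.49 without replicate 2). Thy1, the antigen of the dish for fibroblasts, had 0.22 and 0.59 FPKM in Schwann cells and 13.6 and 12.7 in whole nerve (-4.71 ± 0.33, -5.96 without replicate 2). The collagen I chains differed from the rest. Col1a1, its main chain, had 184 and 179 FPKM in Schwann cells and 1342 and 1340 in whole nerve, a log2 fold change of -2.84 ± 0.20, the smallest decrease among the 14. Col1a2, the partner chain, was listed at 83.7 and 82.8 FPKM in Schwann cells and at 21.6 and 0 in whole nerve and was not called (edgeR, adjusted p = 0.238), though it was called without a filter on low counts (3.01). Col1a2 was at 0 in a whole nerve library in which Col1a1 was at 1340 FPKM, so its estimated level is uncertain.

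Interstitial and basement membrane matrix differed in their counts. Of 32 interstitial matrix genes, 26 were lower in Schwann cells and 5 higher, with a median of -3.63. Fn1, fibronectin, had 10.5 and 21.1 FPKM in Schwann cells and 471 and 495 in whole nerve (-4.87 ± 0.28, -5.48 without replicate 2), while Tnc, tenascin C, and Thbs2 were higher, with 134 and 112 against 23 and 26.6 FPKM (2.42 ± 0.21) and 271 and 248 against 61.8 and 75.5 FPKM (1.97 ± 0.12). Basement membrane genes went both ways, with 9 of 20 higher, 9 lower (8 without replicate 2) and a median of 0.05. Hspg2 (perlecan), Agrn (agrin), Itga6, Itgb4 and Dag1, which are components or receptors of the Schwann cell basal lamina, had log2 fold changes of 1.98 ± 0.14, 1.77 ± 0.13, 1.56 ± 0.12, 1.42 ± 0.12 and 1.5 ± 0.12. Lama2, the laminin chain of that lamina, had 65.2 and 58.3 against 34.1 and 38.1 FPKM (0.82 ± 0.11), and Col4a1, a collagen IV chain of basement membranes, those of vessels included, had 13.6 and 13.6 against 54.9 and 51.1 FPKM (-1.91 ± 0.10).

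Proteases and their inhibitors also went both ways, with 11 of 28 higher, 13 lower and a median of -0.04 (9 higher and 10 lower without replicate 2). Adamts4 and Adamts1, which cut proteoglycans, had 53.9 and 45.9 against 9.79 and 9.97 FPKM (2.38 ± 0.18) and 115 and 119.6 against 21.1 and 28.7 FPKM (2.29 ± 0.22). Plat, the tissue plasminogen activator, had 532 and 515 against 194 and 198 FPKM (1.46 ± 0.11). Mmp2 (gelatinase A) and Ctss (the macrophage cathepsin S) had 2.64 and 2.93 against 86 and 80.1 FPKM (-4.84 ± 0.17) and 1.18 and 3.57 against 209.8 and 206 FPKM (-6.28 ± 0.33, -7.43 without replicate 2), so that both were lower in Schwann cells.

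Vessel and fat markers were lower in the purified cells, where 5 of 7 fat markers, 2 of 14 endothelial markers and 1 of 11 pericyte markers were at the floor. All 14 endothelial markers were lower in Schwann cells (median -5.21, and -6.44 without replicate 2). Pecam1, a junction molecule of endothelium, had 0.1 and 0.67 FPKM in Schwann cells and 22 and 20.2 in whole nerve (-5.51 ± 0.36, -7.67 without replicate 2 and -4.92 without replicate 1), and Plvap was at least 81.9-fold lower. All 11 pericyte and smooth muscle markers were lower, with a median of -4.85 (-4.23 with bounds, and -6.05 without replicate 2). The 7 adipocyte markers were lower too, with a fitted median of -9.09 (-11.75 without replicate 2), or -7.84 where genes at the floor are set to their bound. Adipoq, the hormone adiponectin, had 0.05 and 0.06 FPKM in Schwann cells and 237 and 185 in whole nerve and was at least 1779-fold lower. Thrsp, Retn and Plin1, also genes of fat cells, were at 0 FPKM in both Schwann cell libraries and at least 1175, 316 and 228 times lower. Car3, a carbonic anhydrase of fat and muscle, had 0.21 and 0.19 FPKM in Schwann cells and 952 and 664 in whole nerve (-11.84 ± 0.70).

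Smaller cell types gave fewer measurable genes. All 8 mast cell markers were lower, 7 without replicate 2, with medians of -4.39 and -5.82. Cma1, a mast cell chymase, had 0.32 and 4.38 FPKM in Schwann cells and 127 and 103 in whole nerve, and its log2 fold change was -5.36 ± 0.55 with both Schwann cell libraries, -8.42 without replicate 2 and -4.67 without replicate 1. All 6 red blood cell genes tested of 7 were lower, with a median of -5.37 (-4.52 without replicate 2), though the globin genes have near copies that can share reads. Of 8 skeletal muscle genes 0 passed the edgeR test, 2 had an unadjusted p below 0.05 and 6 passed with DESeq2, with sums of 0.64 and 0.44 FPKM in Schwann cells and 23.8 and 12.2 in whole nerve. Of 10 neutrophil markers 4 were tested and 3 were lower, with a median of -3.78 (-7.94 without replicate 2). Of 14 T, NK and B cell markers 5 were tested and 3 were lower, with a median of -4.81 (-2.40 with bounds, and -6.64 without replicate 2). Of 5 dendritic cell genes tested 4 were lower, with a median of -2.56 (-2.84 without replicate 2), and 1 was higher, namely Itgax, with 2.85 and 2.5 against 1.21 and 0.7 FPKM (1.55 ± 0.29).

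Lists of perineurial cells, satellite glia and neurons went both ways. The perineurial list had a median of -3.78 (-4.33 without replicate 2) and 3 of 4 tested genes lower, among them Cldn1, a tight junction claudin, with 0.67 and 1.35 FPKM in Schwann cells and 106 and 107 in whole nerve (-6.59 ± 0.35, -7.28 without replicate 2). The exception was Itgb4, which is also a receptor of Schwann cells. Of 4 satellite glia genes tested, with a median of -3.59 (-4.34 without replicate 2), 3 were lower, among them the glutamate transporter Slc1a3 with 0.06 and 0.24 against 23.1 and 21.6 FPKM (-6.98 ± 0.37, -8.59 without replicate 2), and the potassium channel Kcnj10 was higher, with 3.73 and 3.37 against 0.94 and 0.9 FPKM (1.95 ± 0.19). Among 9 neuron and axon genes, Nefm and Tubb3, a neurofilament and a tubulin, were higher in Schwann cells, with 49 and 47.5 against 8.68 and 21.5 FPKM (1.73 ± 0.41, and 2.50 without replicate 2 of whole nerve) and 6.04 and 6.48 against 2.44 and 3.29 FPKM (1.18 ± 0.25), but Nefm lost its call in a fit of the day 3 libraries alone (edgeR, adjusted p = 0.114). Stmn2, Snap25 and Prph were lower, with Stmn2 at 0.38 and 0.18 against 1.73 and 3.15 FPKM (-3.17 ± 0.42). Nefl had 70.5 and 65.8 FPKM in Schwann cells and 11.7 and 36.8 in whole nerve, a difference not called (edgeR, adjusted p = 0.0573). It was called without replicate 2 of whole nerve (2.57, adjusted p = 0.0172), with upper quartile scaling and without a filter on low counts in edgeR, and by DESeq2 (adjusted p = 0.016).

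Transcription factors went both ways. Of 38 tested, 18 were higher in Schwann cells (17 without replicate 2) and 16 lower, with a median of 0.46. Egr2, which drives the myelin program and is also an immediate-early gene, had 32.2 and 30.7 FPKM in Schwann cells and 4.38 and 6.1 in whole nerve (2.63 ± 0.16), and Foxd3, a factor of the neural crest, had 16.2 and 14.1 against 5.93 and 5.93 FPKM (1.40 ± 0.19). Sox18 and Meox2, factors of endothelium, were among those that were lower, with 0 and 0 against 4.68 and 3.13 FPKM and 0.09 and 0.11 against 14.8 and 18.1 FPKM. Sox18 was at the floor in Schwann cells and at least 36.4-fold lower.

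The most abundant messages included some that differed little. Vim, the filament of immature glia and mesenchyme, had 8961 and 8548 FPKM in Schwann cells and 4152 and 4344 in whole nerve (1.09 ± 0.10), the largest mean of the Schwann cell group outside mitochondrial and ribosomal genes. Apod, a lipocalin that endoneurial fibroblasts make in quantity, had 169 and 262 FPKM in Schwann cells and 17720 and 15820 in whole nerve (-6.24 ± 0.28), the largest mean of whole nerve by the same count. Fth1, S100a6 and Tmsb4x were lower in the purified cells (log2 fold changes of -1.08 ± 0.12, -1.29 ± 0.16 and -1.07 ± 0.09). S100a11, S100a4, Eef1a1 and Ptma, all abundant, had log2 fold changes of 0.06 ± 0.11, 0.13 ± 0.10, -0.02 ± 0.10 and -0.15 ± 0.19 and were not called, which does not show that they were equal. S100a4 was called in a fit of the day 3 libraries alone (0.18, edgeR, adjusted p = 0.0403).

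Cell cycle genes were present in both tissues at like summed levels. Of 32 cell cycle genes tested, 18 were not called, 11 were lower in Schwann cells and 3 were higher, with a median of -0.16 and with 7 lower and 0 higher without replicate 2. The share that was lower lay near the 32.7% of all genes tested. The list summed to 1470 and 1418 FPKM in Schwann cells and to 1515 and 1572 in whole nerve. At days 5 and 7 at least 2-fold rises were called for 25 of the 32 in whole nerve (5.58% of all genes tested). In Schwann cells 13 rose (7.42%). The rises start from unlike levels, since in uncrushed nerve 25 of the 32 were called higher in Schwann cells and 1 lower (median 1.175). At day 7, 21 were higher in Schwann cells and 1 lower (median 0.56). Mki67, a protein of cycling cells, had 81.7 and 84.9 FPKM in Schwann cells and 68.7 and 71.1 in whole nerve (0.30 ± 0.10), a call lost without replicate 2 of Schwann cells (edgeR, adjusted p = 0.112), replicate 1 of whole nerve (0.0824) or replicate 2 of whole nerve (0.0717). Ccnd2, cyclin D2, was the lowest, with 3.68 and 3.84 against 19.2 and 19.9 FPKM (-2.33 ± 0.20), and cyclin E1 (Ccne1) had 1.6 and 1.97 against 3.97 and 4.31 FPKM (-1.16 ± 0.29). Of 20 cholesterol synthesis genes 7 were higher and 4 lower, with 5 and 0 without replicate 2, against 24.5% and 32.7% of all genes tested, and nothing is read from these counts. Hmgcs1, an early enzyme of the pathway, had 72.5 and 90.1 against 46.3 and 46.2 FPKM (0.86 ± 0.11).

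Several genes were followed by PCR in the study as well. Gpc1, a glypican, had 133 and 146 FPKM in Schwann cells and 57.6 and 55.9 in whole nerve (1.35 ± 0.11). Sparcl1, a matricellular protein of resting glia and vessels, had 5.53 and 6.87 FPKM in Schwann cells and 32.7 and 30.2 in whole nerve (-2.28 ± 0.23). Edn3, an endothelin, had 37.3 and 48.2 FPKM in Schwann cells and 44.8 and 33.2 in whole nerve and was not called (edgeR, adjusted p = 0.495). Spp1, osteopontin, had 101 and 121 FPKM in Schwann cells and 166 and 206 in whole nerve (-0.70 ± 0.14), and Tes, a protein of focal adhesions, had 82 and 76.8 FPKM in Schwann cells and 21.7 and 24.4 in whole nerve (1.83 ± 0.20).

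Genes induced by injury were then compared between the tissues. To keep the choice apart from the comparison, induced genes were taken from days 5 and 7 against uncrushed nerve. These libraries are not those of day 3, though they share the filter, the scaling and the estimate of spread. In whole nerve 939 genes (5.58% of those tested) rose at least 2-fold at both days, and in Schwann cells 1248 (7.42%) did. Of the 939, 273 were higher in Schwann cells at day 3, 383 were lower and 283 were not called. Those 383 are 40.8%, against 32.7% of all genes tested, but with a replicate block the split turned to 240 higher and 202 lower of 671. Of the 1248, 334 (26.8%) were higher and 428 (34.3%) were lower, and in a test against 2-fold 72 were higher and 62 lower of 564.

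The 939 fell into 2 groups by whether the purified cells showed the rise too. For the 351 that rose in both, 144 (41.0%) were higher in Schwann cells at day 3, 75 (21.4%) were lower and 8 were over 8-fold lower. For the 588 that rose in whole nerve and did not pass in Schwann cells, 129 (21.9%) were higher, 308 (52.4%) were lower and 225 (38.3%) were over 8-fold lower. A gene with little signal in Schwann cells cannot pass there, so this choice itself favours genes that are lower in those cells, and these shares are a description. The 897 that rose in Schwann cells and did not pass in whole nerve had 190 higher (21.2%) and 353 lower (39.4%), so that lower calls outnumbered higher ones here too. The medians of the 3 sets were 0.27, -0.74 and -0.27. Among 60 genes that rose at least 4-fold in whole nerve and reached 30 FPKM in a day 3 group, 35 were higher in Schwann cells at day 3, Lrrtm2 (2.77 ± 0.15), Gdnf, Runx2, Rgs16 (2.45 ± 0.15) and Dusp10 (2.43 ± 0.16) among them. A further 11 were lower, such as Mpeg1, a pore-forming protein of macrophages, with 1.09 and 3.88 against 119 and 122 FPKM (-5.48 ± 0.50, -6.76 without replicate 2 of Schwann cells). Bcl2a1, a survival factor, had 1.38 and 5.04 against 41.2 and 41.6 FPKM (-3.55 ± 0.40, -4.88 without replicate 2). Of all 3215 genes tested at that level, 32.5% were higher and 38.7% lower.

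**Figure D4:**
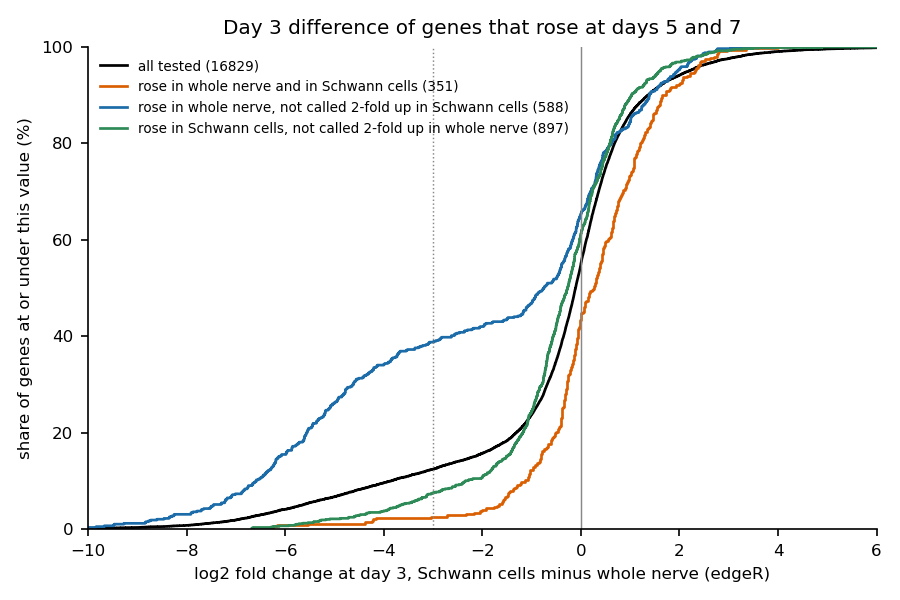
Cumulative share of genes (vertical, %) by day 3 log2 fold change of Schwann cells minus whole nerve (horizontal) for all genes tested (black, 16829) and for genes that rose at days 5 and 7 in both tissues (orange, 351), in whole nerve and without passing in Schwann cells (blue, 588) or the reverse (green, 897). At the dotted line, 8-fold lower, the blue curve holds 38.3% of its genes as called, the orange 2.28% and the green 7.36%, and the choice of the blue set favours genes low in Schwann cells.

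Most day 3 differences were shared with later days, but some were not. The day 3 log2 fold change departed from the mean of those at days 5 and 7 for 1171 genes (6.96%), 760 of them upward. That count was 765 and 669 without replicate 1 or 2 of Schwann cells and 539 and 543 without replicate 1 or 2 of whole nerve. Hbegf had log2 fold changes of 3.12 at day 3, 2.11 at day 5 and 1.80 at day 7, a departure of 1.17 ± 0.20. Scn7a had 3.27, 1.40 and 1.41, and Nkd2, an inhibitor of Wnt signalling, had 2.08, 0.35 and -0.25. These genes were more strongly enriched in Schwann cells at day 3 than later.

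Gdnf moved the other way, with 2.75, 4.05 and 4.24, a departure of -1.39 ± 0.25. Dab2, an endocytic adaptor, was -4.57 at day 3, -2.31 at day 5 and -1.72 at day 7. Fbln5, an elastic fibre protein, was -6.16 (-6.79 without replicate 2), -2.80 and -2.08. Ntm, a neuronal adhesion molecule, was lower in Schwann cells at day 3 (-1.54) and had 0.58 and 0.44 after that. For Dab2 and Fbln5 the gap between the tissues was thus widest at day 3 among the 3 days.

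**Figure D5:**
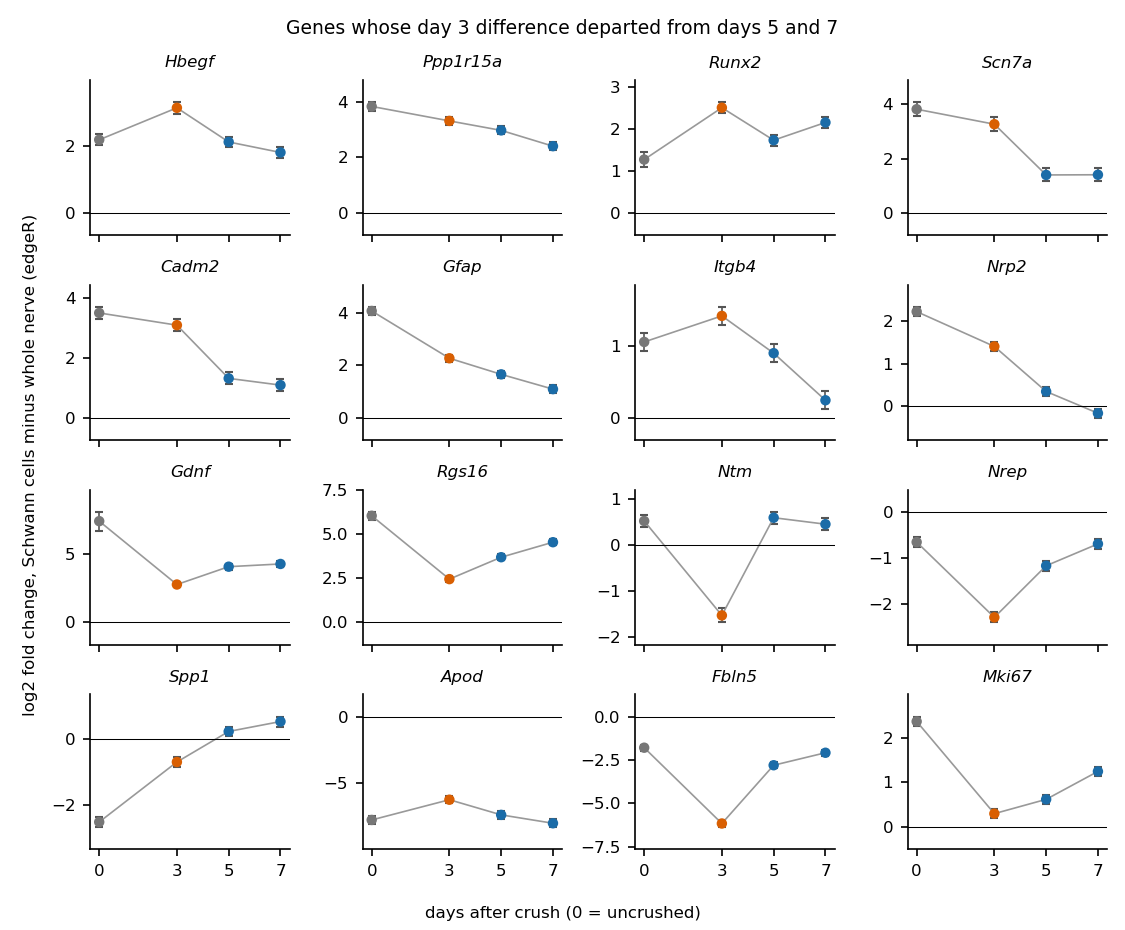
Log2 fold change of Schwann cells minus whole nerve (vertical, own scale in each panel) in uncrushed nerve (0) and at 3, 5 and 7 days after crush (horizontal), for 16 genes whose day 3 value (orange) departed from the mean of days 5 and 7 (blue) in edgeR. Bars are standard errors and the line at 0 marks equal levels. Hbegf and Scn7a lie higher at day 3 than later, and Ntm, Nrep and Fbln5 lie lower.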

How the data were processed

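RNA of purified Schwann cells and of whole sciatic nerve was amplified with the Ovation RNA-seq system, which uses no molecular identifiers, and sequenced in 16 libraries, 2 for each tissue in uncrushed nerve and at 3, 5 and 7 days after crush. Reads were aligned by the authors (STAR, build Rnor_6.0), and genes were quantified with RSEM. The deposited expected counts are RSEM's estimated counts per gene, were not normalized, and were rounded here to whole numbers. The deposited FPKM values, which the authors obtained from RSEM for length and depth, were used for levels. The deposited TPM values, also from RSEM by the authors, were used for shares of transcripts.

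Genes were tested with edgeR 4.0.16 (R 4.3.3), by TMM scaling, filterByExpr and the robust quasi-likelihood test, in 1 fit of all 16 libraries with a mean for each group, so that 8 groups share the estimate of spread. Of 31038 genes in the files, 16829 passed the filter. The p-values were adjusted by the Benjamini-Hochberg method over the genes tested and called below 0.05. Log2 fold changes are Schwann cells minus whole nerve, ± the standard error. The floor was 3 counts per library and bounds cover counting error only. Day 3 was also set against the mean of days 5 and 7 in 1 contrast.

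Alternatives were DESeq2 1.42.0, other size factors, other filters, a test against 2-fold, the day 3 libraries alone, a replicate block, and leaving out each day 3 library. The statistics were tested on simulated data. The 32 lists, the motifs and the genes were chosen with earlier results of these data known. Genes were named by rule: the 12 most enriched in each direction at 30 FPKM or more, the 2 called members at each end of every list, genes plotted in the study, the most abundant and least different genes, and extremes of the time and injury comparisons. Col1a2, Lyz2, Ccl3, Cxcl3, Jun, Sox2, Artn, Shh, Bdnf, Fgf5, Pdgfa, Igf1, Csf1r, Ret, Csf1, Ccl2, Dag1, Itga6, Lama2, Col4a1, Plat, Mmp2, Axl, Apoe, Spi1, Foxd3, Chl1, Cdh19, Pecam1, Nefl, Gpnmb, Il1b, Il1r1, Il34, Il6, Ntrk2, Pdgfrb and Prph were chosen after their values were seen, as were genes shown with their promoters. No library was left out, and promoters came from RefSeq (GRCr8), with 11233 of 16829 tested genes matched by symbol.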

Additional observations from a re-analysis of the deposited data

Results flagged for a closer look

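Of the genes named by rule or after their values were seen, 40 had a day 3 difference between the tissues that departed from the mean of the differences at days 5 and 7, by the edgeR test of that contrast over all genes tested. Values in brackets are the departure on the log2 scale.

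Above 0 on all 3 days, and higher at day 3 than the later mean, were Cadm2 (1.9), Scn7a (1.87), Fign (1.66), Hbegf (1.17), Kcnj10 (1.07), Gfap (0.9), Itgb4 (0.85), Agrn (0.7), Chl1 (0.68), Cdh19 (0.68), Ppp1r15a (0.63) and Runx2 (0.57). All were called higher on each day except Itgb4, which was 0.24 at day 7 (edgeR adjusted p = 0.109). Above 0 on all 3 days, and lower at day 3 than the later mean, were Rgs16 (-1.66), Gdnf (-1.39), Mki67 (-0.63), Galc (-0.6) and Cenpf (-0.51). Values changed sign over the days for Nkd2 (2.03), Rbpms (2.01), Itgax (1.43), Nr1d2 (1.4), Nrp2 (1.31), Ntm (-2.05) and Spp1 (-1.08).

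Among genes below whole nerve on all 3 days, the gap at day 3 was smaller than the later mean for Esam (3.5), Pecam1 (3.02), Atp8b1 (2.3), Ltbp4 (1.47), Apod (1.45), Fn1 (1.44), Gpnmb (1.22), Sema5a (1.04) and Ntrk2 (0.92). Sema5a was -2.09, -4.22 and -2.04 on the 3 days, so its gap was smaller than at day 5 and not than at day 7. The gap at day 3 was larger than the later mean for Fbln5 (-3.71), Dab2 (-2.55), Cpxm1 (-2.24), Nrep (-1.36), Rhoj (-1.25), Hist1h2bk (-1.2) and Pdgfrb (-1.13).

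Leaving out 1 day 3 library kept 29 to 32 of the 40 calls. Without replicate 2 of Schwann cells, which held 6.93 FPKM of endothelial markers against 1.84 in replicate 1, the departure of Pecam1 was 0.86 (edgeR adjusted p = 0.724) and that of Esam was 2.22 (0.309). Both were also lost without either whole nerve library (adjusted p from 0.0754 to 0.0968), with departures of 2.94 to 3.49. Cenpf, Chl1, Ppp1r15a, Runx2 and Sema5a lost their calls without any 1 of the 4 libraries. Their departures then ran, in that order, from -0.60 to -0.42, 0.66 to 0.70, 0.54 to 0.72, 0.49 to 0.65 and 1.03 to 1.05. Galc and Hist1h2bk lost their calls in 3 of these 4 cases, Fn1 and Itgax in 2, and Agrn, Apod and Cdh19 in 1.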

How the results depend on the processing

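Leaving out each day 3 library gave 8073 to 8249 genes called, 3307 to 3491 higher and 4630 to 4788 lower, and 539 to 765 genes whose day 3 difference departed from later days. A test against 2-fold called 3861 genes, 1196 higher and 2665 lower, and 22 departures. By that test 374 genes rose in whole nerve (64 higher and 79 lower at day 3) and 564 in Schwann cells (72 and 62). Without a filter on low counts 1914 genes departed. Upper quartile scaling moved the median by 0.094 and the share of calls that were higher from 42.9% to 48.3%.

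The replicate numbers did not pair the libraries, since same-numbered deviations correlated between -0.0199 and 0.0025. A replicate block within each day called 9180 genes at day 3 and 850 departures. With the block, 671 genes rose in whole nerve, of which 240 were higher and 202 lower in Schwann cells at day 3, so that more were higher than lower, in contrast to the 273 and 383 of 939 without it. The cause was not tested.

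Of 212 named genes, 193 to 201 kept their direction and call without 1 library. Eef1a1, near 0, turned from -0.02 to 0.0254 with DESeq2, 0.0258 with RLE size factors, 0.0035 with at least 10 counts, 0.0249 in day 3 libraries alone, 0.0054 without a filter and 0.0739 with upper quartile scaling. Leaving out 1 library gave -0.0587 to 0.0155 for Eef1a1, -0.043 to 0.4089 for Edn3, -0.0954 to 1.4048 for Il1b, -2.3854 to 1.4154 for Il6, -0.0598 to 0.6873 for Prx and -0.01 to 0.1268 for S100a11, on the log2 scale, and the cause was not tested. In day 3 libraries alone, Ccl2, Ccl3, Hsd17b7, Il34, Lyz2, Mvd and Nefm lost their calls.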
